A study of Drosophila melanogaster with 12 samples.

Results

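A set of 102 genes, measured by 104 probe sets, carried no name beyond a CG number and had mRNA that lay on light polysomes in male flies on restricted and on rich food alike. A CG number is the serial label that the fly genome project gave to a predicted gene. The members were picked from 5667 probe sets (5209 genes) with such a label, out of 18769 probe sets on the array other than controls. The rule required a translational index of -1.2 or lower on each diet. The index is the mean log2 level in the high (heavy) polysome fraction minus that in the low (light) fraction, with log2 taken of the normalised intensity plus 32.

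The flies were whole adult males of the white-eyed laboratory strain w1118. From an age of 1 to 2 days they spent 6 days on food with 0.25% yeast extract (YE), a common form of dietary restriction, or on food with 4% YE, the rich diet. About 100 males were pooled per extract, which was spun through a sucrose gradient. RNA was then taken from the high fraction, with 5 or more ribosomes per mRNA, and from the low fraction, with 1 to 4. This gave 4 groups of 3 arrays: high and low on 0.25% YE, and high and low on 4% YE, from 3 gradients per diet.

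A polysome is an mRNA with several ribosomes translating it at the same time, and heavier polysomes sink further in the gradient. How many ribosomes an mRNA carries depends on how often translation starts, how fast ribosomes move along it and how long its coding region is. A negative index therefore means that an mRNA is found mostly with few ribosomes, relative to the other mRNAs of the same fractions. Labelling of every sample started from an equal mass of RNA, so the index ranks mRNAs against each other and gives no absolute number of ribosomes.

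The arrays numbered 1 stood apart. Log2 levels of replicate 1 correlated with those of replicates 2 and 3 of the same group at 0.882 to 0.956, against 0.987 to 0.994 between replicates 2 and 3. The low-fraction 0.25% YE array of replicate 1 touches the members most: 87 of the 104 probe sets were brightest on it. Without that array the rule would have found 61 probe sets, and without all 4 arrays numbered 1 it would have found 118. Between 59.0% and 66.4% of all probe sets per array exceeded the 95th percentile of the control probe sets, used here as background. The labelled sex was checked with 9 yolk and egg-shell genes. None of these exceeded an intensity of 72.3 on any array, and Yp1, Vm32E and Cp36 were at background on all 12.

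All 102 genes are listed as protein-coding in RefSeq's Release 6 gene table, and a few carry an alias there that points to a protein. CG32267 has the alias Tom5 and CG34200 the alias Tom6, small subunits of the complex that lets proteins through the outer mitochondrial membrane. CG42383 carries p47 NSFL1, which in mammals is a cofactor of the ATPase p97, and CG13920 carries NACHO, which in mammals helps nicotinic acetylcholine receptors to assemble. CG4836 carries SODH-1, a name for sorbitol dehydrogenase, CG32221 carries FBXL18, an F-box protein name, and CG14818 carries Hero9. CG4271 carries SPH164 and CG32833 SPH196, both names for serine protease homologues. CG42789 has the alias lincRNA.863, a name for a long noncoding RNA. No role is given here for the others. Of the members, 42 of 104 (40.4%) have a number of 30000 or more, labels that were handed out in later rounds of annotation, against 22.1% of the 4103 tested probe sets with a CG number only.

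The indices that chose the members are given as a description, with no test. The median index was -1.43 on 0.25% YE (range -2.44 to -1.203) and -1.60 on 4% YE (range -2.53 to -1.21). The value of -2.44 belongs to CG9861, with some high-fraction arrays at background on 0.25% YE. On this scale the median member was 2.70-fold lower in the high than in the low fraction on 0.25% YE and 3.03-fold lower on 4% YE. The medians of all 11261 tested probe sets were 0.0069 and 0.016. An index of -1.2 or lower was found in 2.74% of all tested probe sets on 0.25% YE and in 4.48% on 4% YE, and on both diets in 1.84%. The share was 2.53% among those with a CG number only and 1.2% among the 5938 with another symbol. Indices of -1.5 or lower on both diets were found in 33 members, and only CG42481 and CG13751 reached -2 on both.

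**Figure D1:**
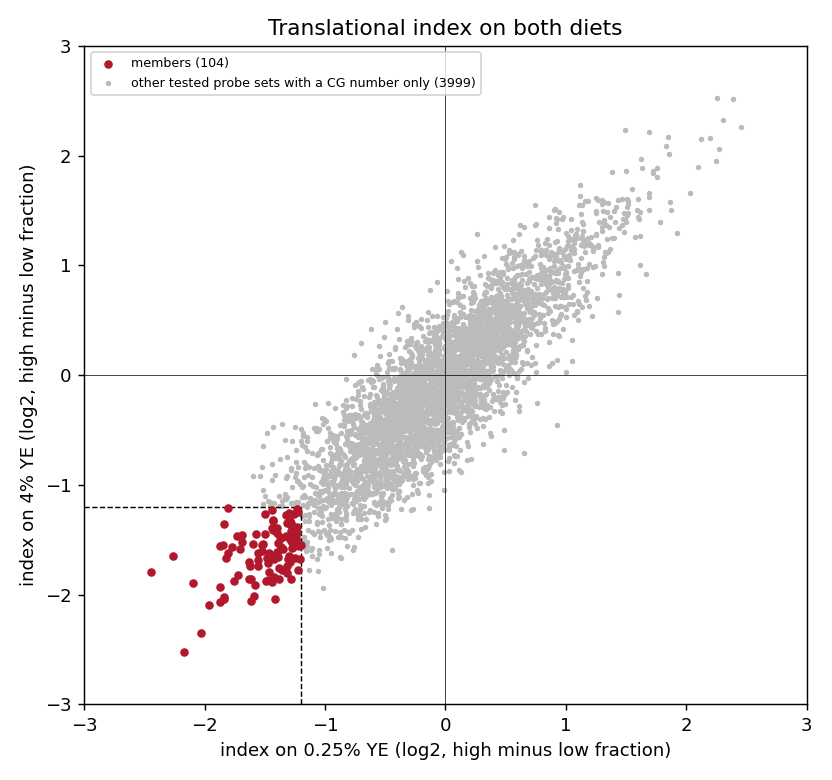
Translational index on 0.25% YE (horizontal) and on 4% YE (vertical), log2, for each tested probe set with a CG number only. Red points are the 104 members, grey points the others, and dashed lines the threshold of -1.2. The members fill the lower left corner down to -2.44 and -2.53. The point at -2.44 is CG9861, with some high-fraction arrays at background on 0.25% YE.

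The edge of the set was gradual. CG12784, the last probe set inside, had an index of -1.203 on 0.25% YE and -1.55 on 4% YE. CG31730, the first one outside, had -1.196 on 0.25% YE and -1.28 on 4% YE. CG30412 and CG13086 lay just inside, at -1.81 and -1.21 and at -1.21 and -1.68. CG7794 and CG31419 lay just outside, at -1.46 and -1.19 and at -1.36 and -1.19. A further 50 tested probe sets with a CG number only passed on 0.25% YE alone and 123 on 4% YE alone.

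The 8 members of lowest mean index show the pattern array by array. CG42481 measured 150, 119 and 159 units of normalised intensity in the high fraction on 0.25% YE, against 1295, 589 and 546 in the low fraction. On 4% YE it measured 142, 192 and 165 in the high fraction, against 1298, 835 and 1234 in the low fraction. High and low arrays were far apart on both diets, and on 0.25% YE the low array of replicate 1 was the brightest. Its index was -2.17 ± 0.64 on 0.25% YE and -2.53 ± 0.51 on 4% YE (SD over 3 gradients per diet, here and below).

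CG13751 measured 204, 131 and 228 in the high fraction on 0.25% YE, against 1709, 649 and 544 in the low fraction. On 4% YE its values were 121, 125 and 98.3 in the high fraction, against 775, 666 and 708 in the low fraction, so that the arrays of each fraction lay close together there. CG31777 measured 297, 271 and 342 in the high fraction on 0.25% YE, against 1678, 1168 and 1053 in the low fraction. On 4% YE it measured 182, 233 and 233 in the high fraction, against 1098, 912 and 1069 in the low fraction. All 3 high arrays were below all 3 low arrays on each diet in both genes.

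CG42789, with the noncoding alias, was brighter, at 781, 327 and 502 in the high fraction on 0.25% YE, against 3059, 1509 and 1583 in the low fraction. On 4% YE it measured 447, 432 and 450 in the high fraction, against 2099, 1810 and 1988 in the low fraction. Its index of -2.07 ± 0.082 on 4% YE had the smallest spread of these 8 on that diet, and it was -1.87 ± 0.26 on 0.25% YE. CG17776 had a mean of 211 ± 47.1 in the high fraction, against 905 ± 498 in the low fraction on 0.25% YE, and of 178 ± 22.0 and 843 ± 210 on 4% YE (SD, n = 3 each).

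CG9861 and CG31029 were further toward the low fraction on 0.25% YE than on 4% YE. CG9861 measured 97.6, 9.75 and 18.2 in the high fraction on 0.25% YE, against 655, 343 and 138 in the low fraction, and 121, 30.0 and 37.7 against 312, 217 and 287 on 4% YE. The high arrays of replicates 2 and 3 on 0.25% YE were at background, and the index there was -2.44 ± 0.71. CG31029 measured 126, 70.9 and 50.4 in the high fraction on 0.25% YE, against 991, 480 and 249 in the low fraction, with indices of -2.26 ± 0.47 on 0.25% YE and -1.65 ± 0.18 on 4% YE.

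**Figure D2:**
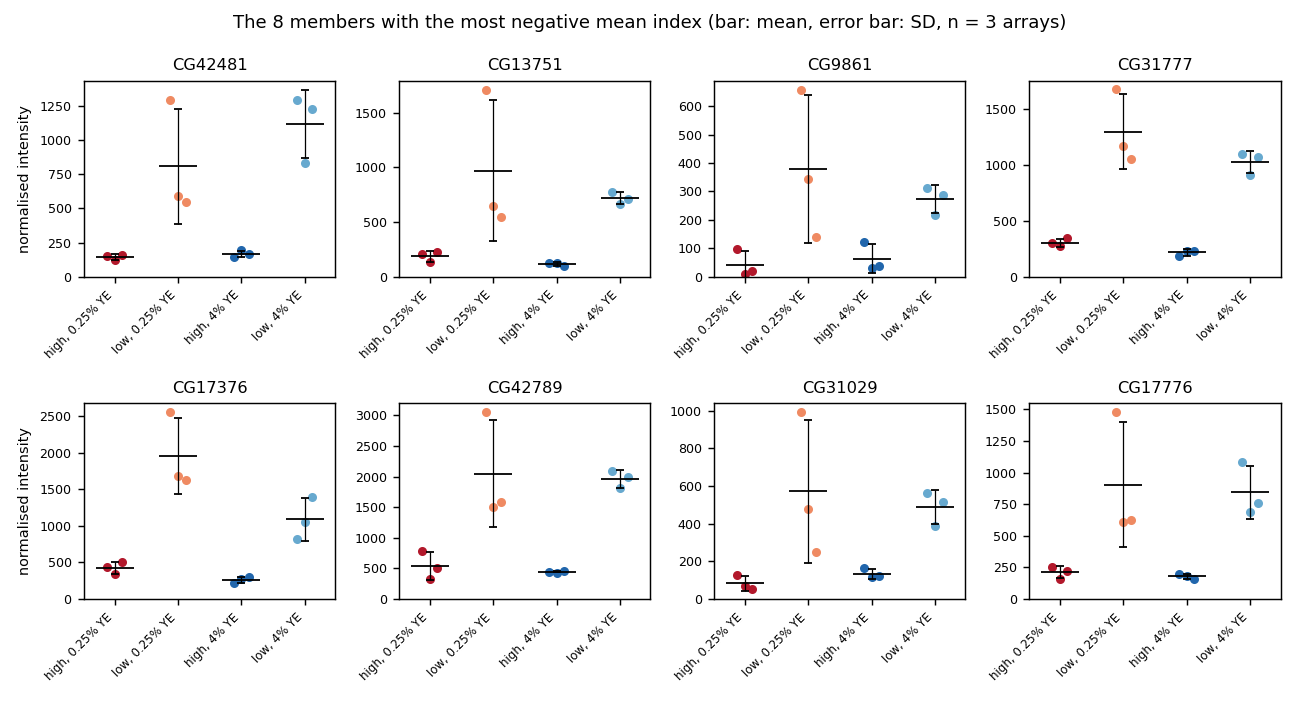
Normalised intensity on each array for the 8 members of lowest mean index, by fraction and diet. Points are arrays, bars are means and error bars SD (n = 3). In CG42481, CG13751 and CG17776 the low-fraction 0.25% YE point of replicate 1 lies well above the other 2.

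Brightness differed widely among the members. The mean intensity over 12 arrays ran from 45.1 for CG12511 to 1928 for CG4836, with a median of 453, against 183 for all tested probe sets and 164 for those with a CG number only. With 32 added before the log, a probe set dim in both fractions cannot reach an index of -1.2. The rule itself thus leaves out dim probe sets, and nothing is read from this gap. It was over 1000 in 18 members, between 300 and 1000 in 51, between 100 and 300 in 32 and below 100 in 3. All 104 passed the filter on low intensity, and 100 were above background on all 12 arrays. In 1 member, at background on all 3 high-fraction arrays of 4% YE, the index on that diet is only a bound. That member was CG32462, which measured 15.7, 12.5 and 19.1 there, against 83.2, 121.4 and 94.9 in the low fraction. The other 3 members not above background throughout, CG9861, CG6059 and CG12511, were at background on some high-fraction arrays. High arrays 2 and 3 were at background for CG12511 on both diets, and for CG32462 on 0.25% YE. The size of these indices was not measured. All 4 were named after their values were seen.

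The brightest member, CG4836 (alias SODH-1), measured 1593, 738 and 877 in the high fraction on 0.25% YE, against 4047, 2835 and 1427 in the low fraction. On 4% YE it measured 1131, 1059 and 1196 in the high fraction, against 3079, 2401 and 2750 in the low fraction. The high array of replicate 1 and the low array of replicate 3 overlapped on 0.25% YE, while on 4% YE all high arrays lay below all low arrays. CG13364 followed with means of 894 ± 268 in the high fraction, against 2769 ± 901 in the low fraction on 0.25% YE, and of 528 ± 38.5 and 2241 ± 287 on 4% YE (SD, n = 3 each). CG14818, CG8206, CG14483, CG15201, CG34200 and CG31788 made up the rest of the brightest 8, with mean intensities from 1330 to 1562 and indices from -1.62 to -1.22 on 0.25% YE and from -2.06 to -1.33 on 4% YE.

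CG32267 (Tom5) and CG34200 (Tom6) could be set beside other genes of the mitochondrial outer membrane translocase, a group chosen after its values were seen. CG32267 measured 558, 544 and 703 in the high fraction on 0.25% YE, against 3092, 2065 and 1829 in the low fraction, and 286, 469 and 485 against 1418, 1660 and 1813 on 4% YE. CG34200 measured 1097, 555 and 755 in the high fraction on 0.25% YE, against 3728, 2074 and 1876 in the low fraction, and 560, 540 and 450 against 2313, 1850 and 1716 on 4% YE. In both genes no high array reached a low array on either diet. Their indices were -1.87 ± 0.53 and -1.62 ± 0.30 on 0.25% YE and -1.93 ± 0.23 and -1.85 ± 0.13 on 4% YE. Tom7, another small subunit, had -1.32 ± 0.19 and -1.45 ± 0.10. The receptor Tom20 had -0.16 ± 0.51 and -0.82 ± 0.040, the receptor Tom70 had -0.73 ± 0.42 and -0.023 ± 0.035, and the channel protein Tom40 had -0.14 ± 0.49 and 0.61 ± 0.44. The probe set of Tom70 is of a type (suffix _s) that can match transcripts of more than 1 gene. The paralogs tomboy20 and tomboy40 had -0.48 ± 0.30 and -0.54 ± 0.086 on 0.25% YE, and -0.78 ± 0.28 and -0.22 ± 0.28 on 4% YE.

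The other members with an informative alias spanned a range of levels. CG42383 (p47 NSFL1) averaged 57.6 ± 23.4 in the high fraction, against 282 ± 89.0 in the low fraction on 0.25% YE, and 50.7 ± 11.2 and 224 ± 42.0 on 4% YE (SD, n = 3 each). Its index of -1.80 ± 0.068 on 0.25% YE was steady across gradients. CG32833 (SPH196) had -1.85 ± 0.090 on 0.25% YE and -1.55 ± 0.18 on 4% YE, and CG4271 (SPH164) had -1.26 ± 0.43 and -1.27 ± 0.092. CG13920 (NACHO) had -1.73 ± 0.84 and -1.47 ± 0.090. Its high-fraction arrays on 0.25% YE read 432, 178 and 105, so that replicate 1 differed from the others.

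The SD of the index over 3 gradients had a median of 0.39 on 0.25% YE and 0.21 on 4% YE, and was larger on 0.25% YE in 87 members. The median index of the members was -1.687, -1.499 and -1.167 in gradients 1, 2 and 3 on 0.25% YE, and -1.77, -1.46 and -1.62 on 4% YE. All 104 members had an index below 0 in all 6 gradients, and 26 were at -1.2 or lower in every one. By gradient, 84, 96 and 48 members were at -1.2 or lower on 0.25% YE and 94, 96 and 101 on 4% YE. CG8788 came closest to 0, with -0.060 in gradient 1 on 0.25% YE, and was singled out after its value was seen. All 3 high arrays lay below all 3 low arrays in 100 members on 0.25% YE, where 17.3% of all tested probe sets did so, and in 104 on 4% YE, where 27.5% did. Nothing is read from these shares, because the same arrays chose the members.

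**Figure D3:**
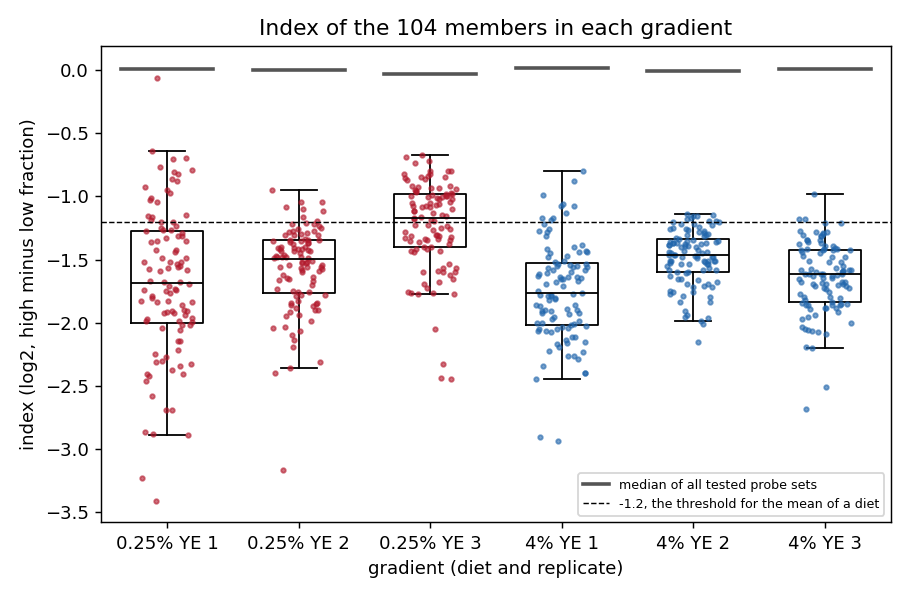
Index of each member (points, log2) in the 3 gradients of 0.25% YE (red) and of 4% YE (blue). Boxes give the quartiles, whiskers the range without outliers, grey bars the median of all tested probe sets, and the dashed line -1.2. The medians run from -1.77 to -1.17, while all tested probe sets lie near 0.

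**Figure D4:**
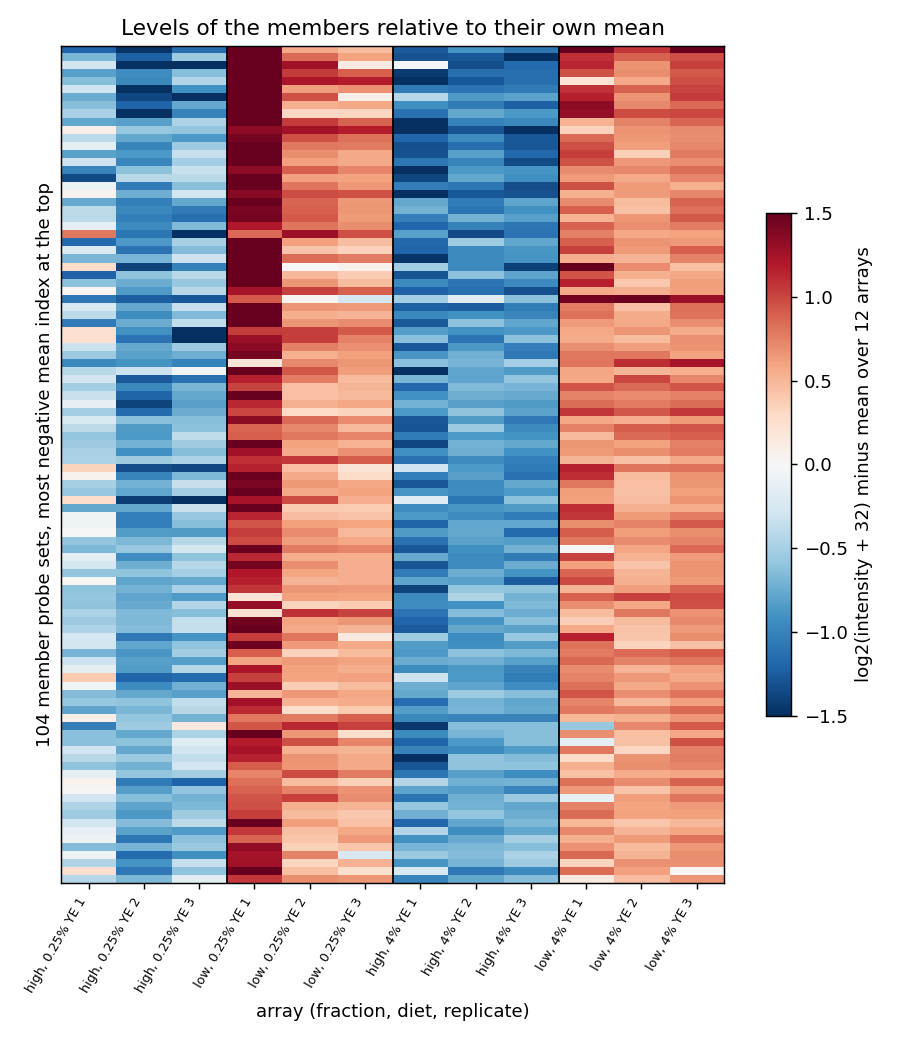
Log2(intensity + 32) of the 104 members on each array, minus the member's mean over 12 arrays, with the lowest mean index at the top. Columns are arrays by fraction, diet and replicate, and colours stop at -1.5 and 1.5. The low-fraction 0.25% YE array of replicate 1 is the darkest red column, being the brightest array for 87 members.

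Of the 102 genes, 5 had more than 1 probe set on the array, which gives a further reading of the same gene. Whether the probe sets of a gene read the same transcript was not tested. CG33169 was found by both of its probe sets, with indices of -1.82 and -1.69 on 0.25% YE and of -1.66 and -1.52 on 4% YE. CG42336 had 4 probe sets. The 2 that were members had -1.52 and -1.42 on 0.25% YE and -1.55 and -1.68 on 4% YE, and the other 2, which were dimmer, had -1.16 and -0.50 on 0.25% YE and -1.60 and -1.18 on 4% YE.

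In CG17376 the probe sets differed more. The one that passed measured 437, 342 and 504 in the high fraction on 0.25% YE, against 2554, 1676 and 1622 in the low fraction. On 4% YE it measured 219.5, 271 and 302 in the high fraction, against 813, 1051 and 1393 in the low fraction. High and low arrays did not overlap on either diet. It had a mean intensity of 932 and indices of -2.09 and -1.89 on 0.25% and 4% YE. The other probe sets of CG17376 were brighter, at 2194 and 1572, and lay nearer 0, at -0.90 and -0.83 on 0.25% YE and at -1.12 and -1.197 on 4% YE. The second probe set of CG33170, at a mean intensity of 67.2, had -0.74 and -1.23. That of CG17377, at 17.4, was above background on 4 arrays and was left out as too dim. All 6 probe sets that did not pass had an index below 0 on both diets. A further 5 member probe sets, among them that of CG12158, are of a type (suffix _s) that can match transcripts of more than 1 gene.

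Few members lay side by side in the genome. By gene order in that RefSeq annotation, 3 pairs were direct neighbours: CG17376 and CG17377, CG33169 and CG33170, and CG15202 and CG15201. The genes of a pair do not overlap there. CG33169 and CG33170 share the older label CG8244, and CG15202 and CG15201 the alias DIGF, with the numbers -4 and -5. Of 105 other tested genes directly next to a member, 44.8% had an index below 0 on both diets, against 40.6% of all 9495 tested genes, and their medians were -0.051 on 0.25% YE and -0.084 on 4% YE.

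The study asked how dietary restriction changes the translational index. Both indices had to be low for a gene to enter, so the change is a description with no test. The index was nearer 0 on 0.25% than on 4% YE in 77 of 104 members, with a median change of 0.16 log2 (range -0.65, for CG9861, to 0.62), while the median of all tested probe sets was -0.018. It was higher on 0.25% YE in 48.0% of all tested probe sets. Among those with a CG number only it was higher in 56.2%, with a median change of 0.050. CG12158 had the largest rise, to -1.42 ± 0.25 on 0.25% YE, against -2.04 ± 0.13 on 4% YE. In the high fraction it measured 977, 554 and 764 on 0.25% YE, against 279, 371 and 359 on 4% YE. In the low fraction it measured 2473, 1876 and 1843 on 0.25% YE, against 1370, 1480 and 1572 on 4% YE. Every 0.25% YE array of CG12158 was brighter than the 4% YE arrays of the same fraction. On the log2 scale the diet difference was larger in the high fraction, at 1.09, against 0.47 in the low fraction.

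CG34212 had an index of -1.29 ± 0.64 on 0.25% YE and -1.86 ± 0.91 on 4% YE. Its high-fraction arrays on 4% YE read 44.7, 191 and 181, with replicate 1 far below the others. CG9344 had -1.23 ± 0.24 on 0.25% YE and -1.77 ± 0.18 on 4% YE. In the other direction the index of CG31029 was 0.61 and that of CG30412 0.59 log2 lower on 0.25% YE. The index of CG9861 was also lower on 0.25% YE, but with high-fraction arrays 2 and 3 at background there the size of its change was not measured. CG30412 measured 382, 97.0 and 89.1 in the high fraction on 0.25% YE, against 271, 130 and 193 on 4% YE, and its replicate 1 did not follow the other 2. The members' median diet difference was 0.30 log2 within the high fraction, where that of all tested probe sets was 0.017, and 0.18 within the low fraction, where it was 0.029. These differences share arrays with the rule and were not tested either.

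The level averaged over both fractions is not itself part of the rule, and its diet difference was tested. It comes from the same arrays, though, and is independent of the index only where both fractions vary equally. The low 0.25% YE array of replicate 1 was the brightest for 87 of 104 members. The members' tests and counts below therefore cannot be taken as independent of how the members were chosen. The high and low values of a gradient were averaged, and the 3 gradients of 0.25% YE were compared with the 3 of 4% YE by limma over all 11261 probe sets. No member passed (0 of 104 at a Benjamini-Hochberg adjusted p under 0.05, lowest adjusted p = 0.054), where 1.48% of all probe sets did (0.186% higher and 1.3% lower on 0.25% YE). In whole flies, fewer cells of a type and less RNA per cell cannot be told apart. At an unadjusted p under 0.05, 15 members were higher and 2 lower on 0.25% YE. These 17 make 16.3% of the members, beside 12.7% of all probe sets. With the 12 arrays entered as separate samples limma called 5 members higher and 1 lower on 0.25% YE, beside 1.23% and 3.09% of all probe sets (4.32% in all), and 24 higher and 2 lower members had an unadjusted p under 0.05, beside 15.8% of all.

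Gradients numbered 1 deviated together across diets, as described under processing. Deviations of 3 gradients from their mean sum to 0, so those numbered 2 and 3 then correlate whether or not they are paired. The correlations therefore cannot show that each number pairs across diets, and no label says what a number marks. The calls below take the number as a block, and without it the test on gradients called no member. With the number as a block, limma called 6 members higher and 2 lower on 0.25% YE, beside 3.2% and 5.22% of all probe sets (8.42% in all). At an unadjusted p under 0.05 there were 37 and 3, beside 25.4% of all. CG15201, of the DIGF pair, had 1236, 769 and 758 units in the high fraction on 0.25% YE, against 340, 453 and 391 on 4% YE. In the low fraction it had 2986, 2818 and 2665 on 0.25% YE, against 1475, 1862 and 1912 on 4% YE. No array of one diet overlapped those of the other within a fraction. Its averaged level was 0.91 ± 0.16 log2 higher on 0.25% YE with the block (SE, limma adjusted p = 0.012, and adjusted p = 0.054 without the block). Its neighbour CG15202 was 0.41 ± 0.12 log2 higher on 0.25% YE but was not called (limma adjusted p = 0.069 with the block).

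CG34198 went the other way. It measured 159, 139 and 134 in the high fraction on 0.25% YE, against 247, 326 and 228 on 4% YE. In the low fraction it measured 725, 379 and 304 on 0.25% YE, against 1061, 1079 and 950 on 4% YE. All arrays on 0.25% YE were below those on 4% YE in both fractions. The difference was -0.96 ± 0.16 log2 with the block (limma adjusted p = 0.0084, and 0.088 without it). CG15353, the other member called lower, measured 66.7, 71.5 and 64.2 in the high fraction on 0.25% YE, against 93.0, 87.3 and 103 on 4% YE, and 189, 286 and 275 against 306, 384 and 425 in the low fraction. Its difference was negative and the diets did not overlap in either fraction (-0.43 ± 0.11 log2 with the block, limma adjusted p = 0.043, and 0.25 without it).

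CG16756, called higher, had replicates close together. It measured 461, 445 and 463 in the high fraction on 0.25% YE, against 283, 325 and 305 on 4% YE. In the low fraction it measured 1437, 1402 and 1253 on 0.25% YE, against 950, 899 and 987 on 4% YE. The averaged difference of CG16756 was 0.53 ± 0.12 log2 (limma with the block, adjusted p = 0.035, and 0.12 without it), while its index was nearly equal on the diets, -1.51 ± 0.12 and -1.54 ± 0.14. CG11686 measured 399.6, 201.5 and 285 in the high fraction on 0.25% YE, against 150.5, 160.2 and 137 on 4% YE, and 963, 827 and 755 against 594, 582 and 615 in the low fraction, with no overlap between diets. The 4 others called higher were CG12158 at 0.78 ± 0.17, CG11686 at 0.64 ± 0.14, CG17376 at 0.73 ± 0.18 and CG34212 at 0.77 ± 0.20 log2 (limma adjusted p = 0.028, 0.030, 0.040 and 0.049 with the block, and 0.11, 0.17, 0.17 and 0.20 without it).

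**Figure D5:**
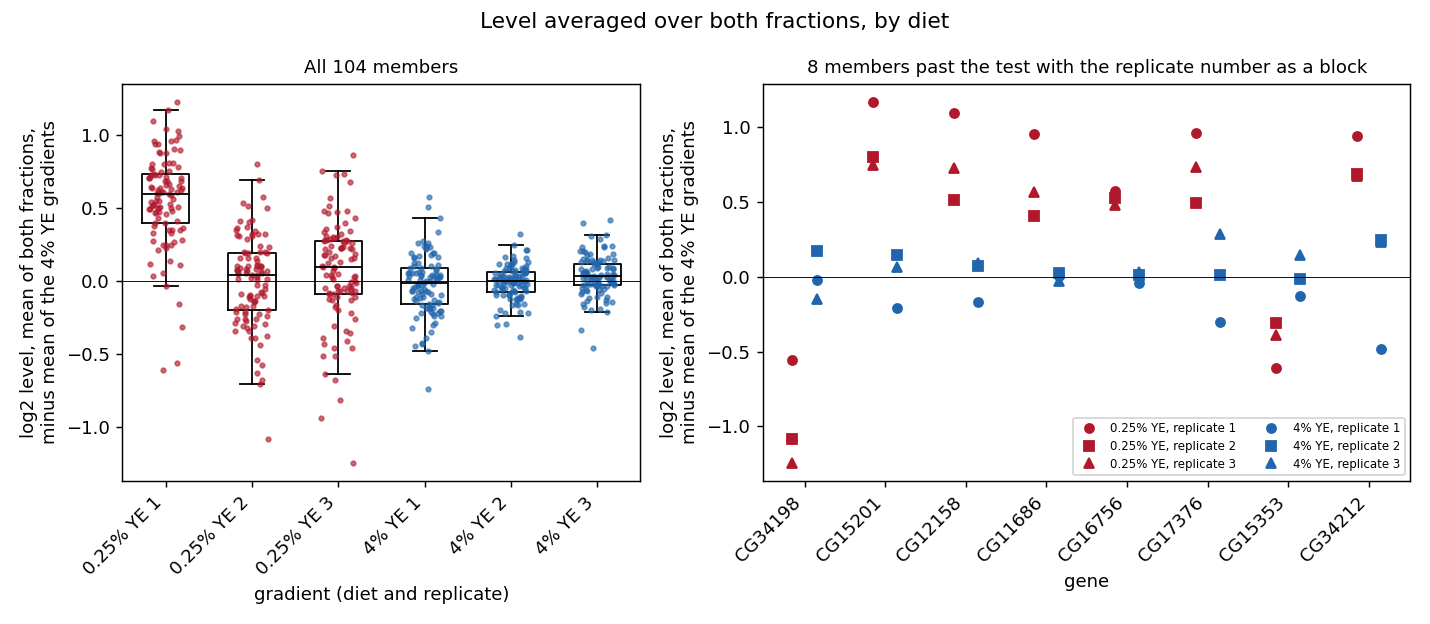
Log2 level averaged over both fractions, minus the mean of the 4% YE gradients. Left, all 104 members in each gradient, with quartile boxes. Right, the 8 members called with the replicate number as a block, with 0.25% YE gradients in red and 4% YE gradients in blue. The members' median is 0.60 in gradient 1 of 0.25% YE and 0.042 and 0.092 in gradients 2 and 3.

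Over all members the averaged level was higher on 0.25% YE in 84 of 104, with a median difference of 0.20 log2, beside 55.1% and a median of 0.029 for all tested probe sets. Both values depended strongly on 1 gradient. Against the mean of 4% YE the members' median was 0.60 in gradient 1 of 0.25% YE and 0.042 and 0.092 in gradients 2 and 3. For all tested probe sets these medians were 0.037, 0.016 and 0.0097. Without gradient 1 of 0.25% YE the median difference was 0.019 log2, 54 of 104 members were higher, beside 51.8% of all probe sets, and limma called 2 members, beside 336 of all 11261 probe sets. The gradients did not overlap in 32 members that were higher and 4 that were lower on 0.25% YE, beside 10.8% and 10.5% of all tested probe sets.

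Marker genes of other tissues were measured on the same arrays, and their part in the members' values was not tested. Of 18 tested testis and sperm genes 0 were called for diet (limma, median averaged difference 0.27 log2). Their summed intensity was 15353 to 18913 in the high fraction, against 18769 to 29314 in the low fraction on 0.25% YE, and 12982 to 17457 and 17093 to 21255 on 4% YE. Of 5 muscle genes 0 were called (median 0.55 log2), with sums of 8218 to 11100 in the high fraction, against 5515 to 8890 in the low fraction, on 0.25% YE, and of 4639 to 6408 against 5091 to 7041 on 4% YE. Of 19 accessory gland genes, whose products go into the seminal fluid, 0 were called (median -0.056 log2), and their sums were lower in the high than in the low fraction on both diets, at 36798 to 49171 against 57036 to 66511 on 0.25% YE and 43236 to 46103 against 62676 to 63307 on 4% YE.

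Among the remaining lists, 2 of 3 tested fat body genes, Lsp2 and Npc2e, fell on 0.25% YE (limma, list median -2.45 log2), and Fbp1 and Fbp2 were at background on all arrays. The fat body sums were 4874 to 7772 in the high fraction, against 4469 to 5302 in the low fraction, on 0.25% YE, and 12946 to 14947 against 9792 to 10719 on 4% YE. Of 7 gut genes 0 were called (median 0.072), and of 5 neuron and eye genes 0 (median 0.20). The gut sums were 27855 to 31439 in the high fraction, against 23789 to 28482 in the low fraction, on 0.25% YE, and 29384 to 31619 against 25022 to 30587 on 4% YE. The neuron and eye sums were 2527 to 2625 in the high fraction, against 1934 to 2416 in the low fraction, on 0.25% YE, and 1808 to 2360 against 1492 to 1721 on 4% YE. With the block, limma called 1 of 18 testis, 3 of 5 muscle and 1 of 5 neuron and eye genes higher on 0.25% YE. It called 2 of 3 fat body and 3 of 7 gut genes lower. Of all probe sets it called 3.2% higher and 5.22% lower. No marker gene could be a member, because the markers all have a name and the members a CG number only.

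Unnamed genes at the other end, with indices of 1.2 or higher on both diets, numbered 80 probe sets (79 genes). The median intensity was 453 in the light set, against 465 in this heavy set. The median change of index between diets was 0.16 log2 in the light set, against -0.034 in the heavy set, and the median averaged diet difference was 0.20 in the light set, against -0.075 in the heavy set. In gradient 1 of 0.25% YE the median averaged level relative to 4% YE was 0.60 in the light set, against -0.68 in the heavy set. The 2 sets were not compared by a test, since both were chosen on the same arrays.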

How the data were processed

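The authors deposited 1 intensity per probe set for each of 12 single-colour Affymetrix arrays, made from 100 ng of RNA each per the labels' protocols. The sources used here do not name the summarising program or any scaling. The medians of the deposited intensities ran from 39.3 to 95.6 over the arrays. The 12 arrays (18869 probe sets, 100 of them controls) were quantile normalised, floored at 0 and put on the scale log2(value + 32). No 2 arrays were identical, and 0 per-sample columns were unused. Probe sets in the lowest 40% by mean intensity (under 23.7) were dropped, leaving 11261. Symbols came from the platform annotation, updated through RefSeq's Release 6 table (13549 of 13646 single symbols matched, and all 104 members).

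The members, lists and tests were chosen with earlier results of these data known. The averaged diet effect was tested by limma (version 3.58.1, R 4.3.3; lmFit, eBayes with intensity trend) on 6 gradient means, two-sided, with Benjamini-Hochberg adjustment. Per the series' design text the replicates are biological. The fractions of a gradient share flies, so gradients, not arrays, were the replicates. High and low arrays of 1 diet and number were taken as 1 gradient, and their deviations from group means correlated at 0.164 to 0.601 (high 2 with low 3 on 0.25% YE, of unlike number, at 0.492). The replicate number is read from the titles, in which the first on 4% YE has none. Gradients of 1 number correlated across diets at 0.523 to 0.710 in their deviations, and those numbered 2 and 3 with each other at 0.481 to 0.685. Deviations from a mean of 3 sum to 0, so a shared deviation of those numbered 1 alone makes the others correlate. These values cannot show that numbers 2 and 3 each pair across diets, and the same limit holds for the fractions of a gradient. No label says what a number marks. The block with that number is therefore printed where it changes a call. On simulated data over 11261 probe sets the test of the averaged diet effect recovered 57 of 100 changes of 2-fold and 91 of 100 of 4-fold, and called 11 unchanged probe sets. That recovery, and the count of unchanged probe sets called, was not tested with gradients numbered 1 deviating together, as they did here. Named members were the 8 brightest, the 8 of lowest mean index and the 3 with the largest index change each way. Those at the threshold, those with several probe sets and direct neighbours were named as well. Without the block no member was called, so none was named for its diet effect by the rule. Those called with the block or bearing an alias were added after their values were seen. The planned comparison of protein features was not run.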

Additional observations from a re-analysis of the deposited data

How the results depend on the processing

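The number of members depended on the scale. It was 26 with the values as deposited, 46 with median centring, 286 with log2(value + 1), 70 with log2(value + 64), 196 with a threshold of -1.0 and 33 with -1.5, and it ran from 61 (without low 0.25% YE replicate 1) to 128 when 1 array was left out. For the 104 members found in the main setting, the median index on 0.25% and 4% YE was -0.98 and -1.33 as deposited, where the median of all probe sets was 0.32 and 0.24, so that relative to it the members lay at -1.30 and -1.56. It was -1.81 on 4% YE with log2(value + 1). The members' median change of index, 0.16, was 0.36 as deposited and 0.31 with median centring, or 0.29 above that of all probe sets in both. Protein features were not run. The averaged diet effect called 167 probe sets, against 66 with no filter on low intensity, 487 with 12 arrays as separate samples, 948 with the replicate number as a block and 2597 without both gradients numbered 1, an alternative chosen after seeing the data. Leaving out 1 gradient gave 20 (without 4% YE replicate 2) to 336 (without 0.25% YE replicate 1). Members called numbered 0, against 6 with 12 arrays, 8 with the block, 21 without both gradients numbered 1, and 0 to 2 with 1 gradient left out. The members' median averaged diet difference ran from 0.019 (without 0.25% YE replicate 1) to 0.32 with 1 gradient left out, and was 0.32 as deposited, where that of all probe sets was 0.15. The 8 members called with the block kept their direction under all 14 alternatives, with limma adjusted p from 6.9e-06 to 0.40 for CG34198 from 7.8e-05 to 0.20 for CG15201 and from 0.00145 to 0.645 over the other 6. With 3 arrays per group and 4 members below background on some array, indices of dim members are imprecise.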
